A study of Mus musculus with 16 samples.

Results

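The H3K9me3 ChIP-seq peak lists of late catagen were compared between bulge hair follicle stem cells (LC-HFSCs) and the basal cells sorted beside them (non-LC-HFSCs). The members were all peaks of these 2 lists, 1414 in LC-HFSCs and 18236 in non-LC-HFSCs, 19650 of the 219698 peaks in the 12 lists of the series. A peak was counted as shared when at least 1 bp of it lay on a peak of the other list, and otherwise as present in its population alone. Both populations came from the skin of wild-type CD1 x FVB male mice at postnatal days (PD) 38 to 44. LC-HFSCs were sorted as CD34+/α6-integrin+ and non-LC-HFSCs as CD34-/α6-integrin+, which the study describes as mostly epidermis and lower outer root sheath. The series also holds H3K4me3, H3K27me3 and IgG samples of these cells and the same marks in early anagen (EA-HFSCs and non-EA-HFSCs, PD22 to PD25). Antibodies from Millipore and Abcam are named for H3K9me3 in both populations.

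H3K9me3 marks constitutive heterochromatin, where HP1 proteins bind it. Setdb1 writes much of it on chromosome arms after KRAB zinc finger proteins have brought the corepressor Trim28 to DNA, and the zinc finger gene clusters carry the mark themselves. H3K4me3 sits at active or poised promoters and H3K27me3 on Polycomb targets, so that neither usually shares a site with H3K9me3. In the hair cycle, late catagen is the stage at which the follicle has regressed and the bulge stem cells rest.

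Each list was made from the pooled reads of independent experiments, so that there was 1 list per population, no replicate check and no test between populations. Shares are given with 95% Wilson intervals, which cover counting error only, and neighbouring peaks are not independent. Each peak carries a score, 10 times the negative log10 of its p-value against IgG, with a minimum of 40. The depth behind the peaks is not known from the lists. The study states that its reads did not saturate peak detection for this mark, that LC-HFSCs had more reads than EA-HFSCs, and that its replicate experiments correlated highly. The sorted cells were checked by H3K4me3 at marker genes. Of 11 bulge stem cell markers, 10 had an H3K4me3 peak at the gene start in LC-HFSCs, Cd34 and Lhx2 among them, and 8 in non-LC-HFSCs, without these. Among 6 basal skin epithelium markers, 4 had an H3K4me3 peak at the start in either population. Trp63 and Itga6, the gene of the α6-integrin used for sorting, had none in either. Of 6 epidermal markers 4 had one in LC-HFSCs, Krt10 and Lor among them, and 5 in non-LC-HFSCs. Of 7 fibroblast markers 3 had one in either population, of 7 melanocyte markers 3 and 2, of 5 endothelial markers 1 in either, and of 8 leukocyte markers none. The part of such cells in the results was not tested.

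Sequences under 3 peaks show kinds of DNA found in the lists. The first shows the coding repeats of zinc finger genes, which carried shared peaks. It lies at chr13:62470466-62470765 (mm9, minus strand) in the coding sequence of Gm3604, under the highest-scoring shared LC-HFSC peak that held such a stretch. The second, at chr17:22065531-22065830 (minus strand) in the coding sequence of Zfp942, lies under an LC-HFSC peak with a score of 123 and no non-LC-HFSC peak. In both, capitals mark the codons of the TGEKP linker between adjacent zinc fingers, searched on both strands as ACNGGNGANAANCC, with 4 matches in each 300-base stretch. The Zfp942 peak was chosen by score among peaks of LC-HFSCs alone that held such matches, so it is not typical of them. Of all peaks in LC-HFSCs alone, 3.19% had a match in their central 1 kb.

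Gm3604, shared: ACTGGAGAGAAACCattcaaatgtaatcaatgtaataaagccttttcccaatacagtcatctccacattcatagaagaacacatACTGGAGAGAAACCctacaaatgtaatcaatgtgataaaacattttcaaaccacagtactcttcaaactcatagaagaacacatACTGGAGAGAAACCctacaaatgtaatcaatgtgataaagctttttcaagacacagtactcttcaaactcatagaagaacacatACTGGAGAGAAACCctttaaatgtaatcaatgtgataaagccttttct
Zfp942, LC-HFSCs alone: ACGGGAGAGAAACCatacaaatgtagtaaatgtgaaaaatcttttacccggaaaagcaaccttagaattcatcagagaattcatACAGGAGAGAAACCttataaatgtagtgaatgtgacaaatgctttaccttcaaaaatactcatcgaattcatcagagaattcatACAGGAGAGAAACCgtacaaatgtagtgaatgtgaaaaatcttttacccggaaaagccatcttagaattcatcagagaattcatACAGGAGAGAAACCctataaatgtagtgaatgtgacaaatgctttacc

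The last sequence shows DNA under a peak of non-LC-HFSCs alone that lay on H3K4me3, chosen as the promoter peak nearest to the median GC content and CpG ratio of its class. The peak, with a score of 82.7, lay at the promoter of Mcm5, a subunit of the replicative helicase. Its stretch, chr8:77633127-77633426 (plus strand, 300 bases), is centred 150 bp from the gene start. Capitals mark its 24 CpG dinucleotides.

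Mcm5 promoter, non-LC-HFSCs alone: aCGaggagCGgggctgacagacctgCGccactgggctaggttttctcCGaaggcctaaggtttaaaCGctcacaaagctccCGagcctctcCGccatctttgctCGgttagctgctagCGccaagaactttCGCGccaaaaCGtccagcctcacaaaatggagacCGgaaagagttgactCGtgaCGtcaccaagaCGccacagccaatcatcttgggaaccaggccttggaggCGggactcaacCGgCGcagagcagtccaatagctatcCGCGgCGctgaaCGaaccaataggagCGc

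LC-HFSCs had fewer but wider H3K9me3 peaks than non-LC-HFSCs. The ratio of peak numbers was 0.0775 (0.0735 to 0.0819), and LC-HFSCs had the lower number on each of the 19 autosomes. The covered length differed less, 2.75 Mb against 11.7 Mb, giving 0.235 as the ratio. The median width was 1629 bp in LC-HFSCs (quartiles 1295 and 2194 bp) and 578 bp in non-LC-HFSCs (518 and 695 bp). A width of at least 2000 bp was reached by 437 LC-HFSC peaks (30.9%) and by 77 non-LC-HFSC peaks (0.422%). The list with fewer peaks therefore held more wide peaks. The order of covered lengths depended on how the lists were cut. The 1414 non-LC-HFSC peaks of highest score covered 1.58 Mb with a median width of 1010 bp, and LC-HFSCs covered 1.74 times this length.

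The ratio of peak numbers moved with the score. It was 0.0928 among peaks with a score of at least 50, 0.240 (0.206 to 0.281) at 100 or more and 0.252 (0.166 to 0.384) at 200 or more. Few peaks of either list scored high. In LC-HFSCs 196 peaks (13.9%) reached a score of 100, with a median of 53.5 and a highest score of 445. In non-LC-HFSCs 816 (4.47%) did, with a median of 49.6 and a highest score of 3100. Scores depend on depth and background and were not compared between the lists peak by peak.

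The other marks of the same cells differed in the same direction. The ratio of LC-HFSC to non-LC-HFSC peak numbers was 0.125 (0.119 to 0.131) for H3K27me3 and 0.775 (0.758 to 0.792) for H3K4me3. LC-HFSC peaks were also wider for these marks, with medians of 2979 and 1469 bp for H3K27me3 and 2308 and 1794 bp for H3K4me3. The part that library depth or fragment length had in the number and width of peaks was not tested. In early anagen the H3K9me3 lists stood the other way round, with 2.37 times as many peaks in EA-HFSCs as in non-EA-HFSCs.

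**Figure D1:**
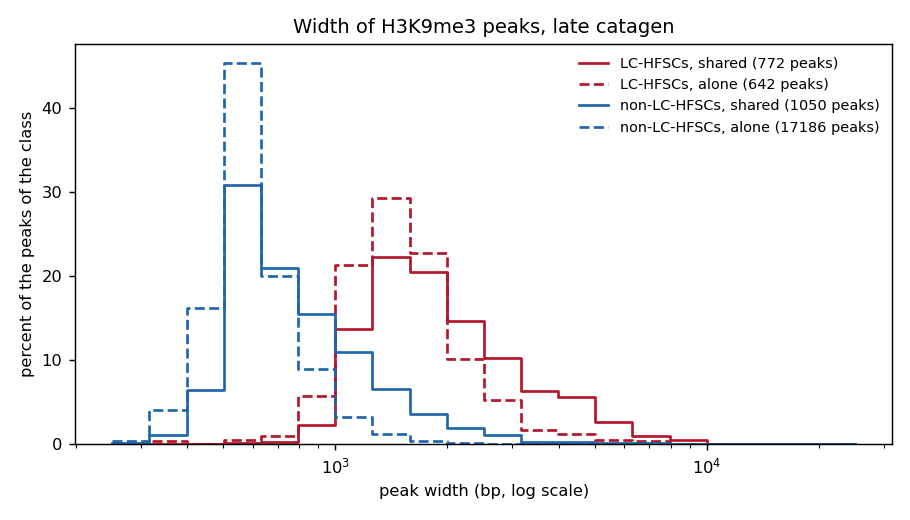
Distribution of peak widths (x axis, bp on a log scale) as percent of the peaks in each class (y axis) for shared peaks (solid lines) and peaks of 1 population alone (dashed lines). LC-HFSC peaks have medians of 1810 bp (shared) and 1474 bp (alone), and non-LC-HFSC peaks of 703 and 575 bp.

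More than 1 in 2 LC-HFSC peaks had a counterpart in non-LC-HFSCs, and few non-LC-HFSC peaks had one in LC-HFSCs. Of the LC-HFSC peaks, 772 were shared, or 54.6% (51.99 to 57.2%), and 642 were present in LC-HFSCs alone. Of the non-LC-HFSC peaks, 1050 were shared, or 5.76% (5.43 to 6.11%), and 17186 were present in non-LC-HFSCs alone. Merging both lists gave 18573 loci, of which 745 (4.01%) had peaks of both populations. A broad LC-HFSC peak often enclosed narrow non-LC-HFSC peaks. Of the shared LC-HFSC peaks 551 touched 1 non-LC-HFSC peak, 155 touched 2 and 66 touched 3 or more. Of the shared non-LC-HFSC peaks, 679 (64.7%) lay wholly inside an LC-HFSC peak. The LC-HFSC peak was wider than the non-LC-HFSC peaks on it together at 682 of the 772 (88.3%), with a median ratio of 1.89 (quartiles 1.31 and 2.72).

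For LC-HFSC peaks without a counterpart the median distance to the nearest non-LC-HFSC peak was 10350 bp, and 264 of the 642 (41.1%) lay within 5000 bp. For non-LC-HFSC peaks without a counterpart on the same chromosomes the median distance to an LC-HFSC peak was 859058 bp, and 624 of 17176 (3.63%) lay within 5000 bp. These distances are measured to lists of very different length, so they were not compared with each other. Shared peaks were wider and scored higher than the others of their own list. In LC-HFSCs the median score was 58.7 for shared peaks and 49.1 for the others, and of the 196 peaks scoring 100 or more, 165 had a counterpart. In non-LC-HFSCs the medians were 62.2 and 49.4, and 219 of 816 were shared.

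The share with a counterpart rose along the scores of either list. The lists were divided by score into 10 equal groups, or deciles. In the lowest decile of LC-HFSCs 36.6% (29.2 to 44.8%) of the peaks were shared, and in the highest decile 86.5% (79.9 to 91.2%). In non-LC-HFSCs the lowest decile had 3.29% (2.56 to 4.21%), the next to highest 7.08% (5.99 to 8.35%) and the highest 20.2% (18.5 to 22.2%). Width and score rose together within the LC-HFSC list, so that the 2 cannot be told apart here. Among LC-HFSC peaks of at least 3000 bp, 136 of 166 were shared (81.9%, 75.4 to 87.0%). Both shares depended on the score cut. With a score of at least 100 in both lists, 38.3% (31.8 to 45.2%) of the LC-HFSC and 11.3% (9.28 to 13.6%) of the non-LC-HFSC peaks were shared. With the 1414 highest scores of each list, the shares were 20.7% and 22.4%.

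**Figure D2:**
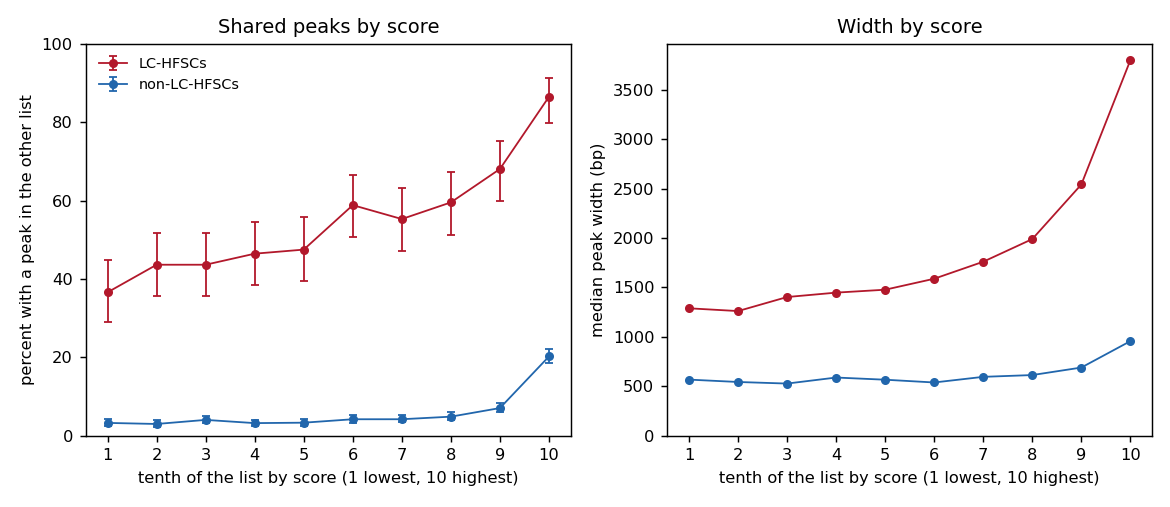
Left, percent of peaks with a peak in the other list (y axis, bars are 95% Wilson intervals) by decile of the list ordered by score (x axis); right, median width in bp of the same deciles. The shared percent goes from 36.6% to 86.5% in LC-HFSCs and from 3.29% to 20.2% in non-LC-HFSCs, and the width from 1289 to 3798 bp and from 568 to 957 bp.

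Few LC-HFSC peaks lay on H3K4me3 or H3K27me3, while a part of the non-LC-HFSC peaks lay on these marks. Overlap with H3K4me3 of the same cells was found for 5 of 1414 LC-HFSC peaks (0.354%, 0.151 to 0.825%) and with H3K27me3 for 16 (1.13%, 0.698 to 1.83%). In non-LC-HFSCs 1769 of 18236 peaks overlapped H3K4me3 (9.70%, 9.28 to 10.1%) and 2267 overlapped H3K27me3 (12.4%, 11.96 to 12.9%). No LC-HFSC peak and 113 non-LC-HFSC peaks (0.620%) lay on both marks. The lists of the other marks differ in length too. The H3K27me3 list of LC-HFSCs covers 7.41 Mb (0.279% of the genome) and that of non-LC-HFSCs 35.9 Mb (1.35%). The H3K4me3 lists cover 37.7 and 37.5 Mb (1.42% and 1.41%). The difference in overlap with H3K4me3 was thus found on lists of nearly equal coverage. In LC-HFSCs the H3K4me3 overlap lay below the share of the genome covered and the H3K27me3 overlap above it. In non-LC-HFSCs both overlaps lay above it. Overlap by 1 bp also rises with peak width, so these shares are not expected overlaps.

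Most of this overlap was on peaks present in non-LC-HFSCs alone. Of these, 1758 (10.2%, 9.79 to 10.7%) lay on H3K4me3 and 2205 (12.8%, 12.3 to 13.3%) on H3K27me3. Of the 1050 shared non-LC-HFSC peaks, 11 (1.05%, 0.586 to 1.87%) lay on H3K4me3 and 62 (5.90%, 4.63 to 7.50%) on H3K27me3. The H3K4me3 overlap was 9.49% (8.22 to 10.9%) in the lowest and 8.45% (7.26 to 9.81%) in the highest decile of the non-LC-HFSC list, and 6.13% (4.68 to 7.99%) among its peaks with a score of 100 or more. The H3K27me3 overlap went from 10.03% to 22.1% (20.2 to 24.0%) between these deciles. Among the 1414 highest-scoring non-LC-HFSC peaks, 7.99% (6.69 to 9.52%) lay on H3K4me3 and 22.9% (20.8 to 25.2%) on H3K27me3. Both stayed above the LC-HFSC shares with H3K9me3 lists of equal length. The H3K27me3 lists were not cut and still covered 35.9 Mb in non-LC-HFSCs and 7.41 Mb in LC-HFSCs. The part of this unequal coverage in the H3K27me3 overlap was not tested.

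The 1758 peaks of non-LC-HFSCs alone on H3K4me3 were rich in CpG. In the central 1 kb their median GC content was 57.1% and their median ratio of observed to expected CpG 0.722, against 44.0% and 0.170 for the 15428 off H3K4me3 and 0.191 over the genome. By the middle of those on placed chromosomes, 761 (43.4%) fell in promoters and 635 (36.2%) in introns, and 124 (7.07%) were intergenic. Their median score of 50.1 and width of 616 bp were close to those of the peaks off H3K4me3 (49.3 and 573 bp). The Mcm5 stretch printed above is of this kind. The 2094 peaks on H3K27me3 and off H3K4me3 were mostly intergenic (65.1%) with a median GC content of 45.8%.

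The early anagen lists, which were not used to define the classes, separated them further. Their peaks also differed in width, with medians of 649 bp in EA-HFSCs and 1072 bp in non-EA-HFSCs. In late catagen the wider peaks were those of LC-HFSCs, at 1629 against 578 bp. The part of width or library in the overlaps between stages was not tested. Of the LC-HFSC peaks, 1237 (87.5%, 85.7 to 89.1%) lay on an H3K9me3 peak of non-EA-HFSCs and 602 (42.6%, 40.02 to 45.2%) on one of EA-HFSCs, although the EA-HFSC list is the longer with 42277 against 17873 peaks and covers 38.1 against 24.0 Mb. Even among the peaks present in LC-HFSCs alone, 513 of 642 (79.9%, 76.6 to 82.8%) lay on a non-EA-HFSC peak. Shared peaks did so for 93.8% in LC-HFSCs and 93.9% in non-LC-HFSCs. Of the peaks present in non-LC-HFSCs alone, 22.3% (21.6 to 22.9%) lay on a non-EA-HFSC peak and 22.6% on an EA-HFSC peak, and 10385 (60.4%) on neither. Among the 1414 highest-scoring non-LC-HFSC peaks the non-EA-HFSC share was 62.7% (60.1 to 65.1%), below that of all LC-HFSC peaks, and the EA-HFSC share was 47.6% (45.0 to 50.2%), above that of all LC-HFSC peaks.

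**Figure D3:**
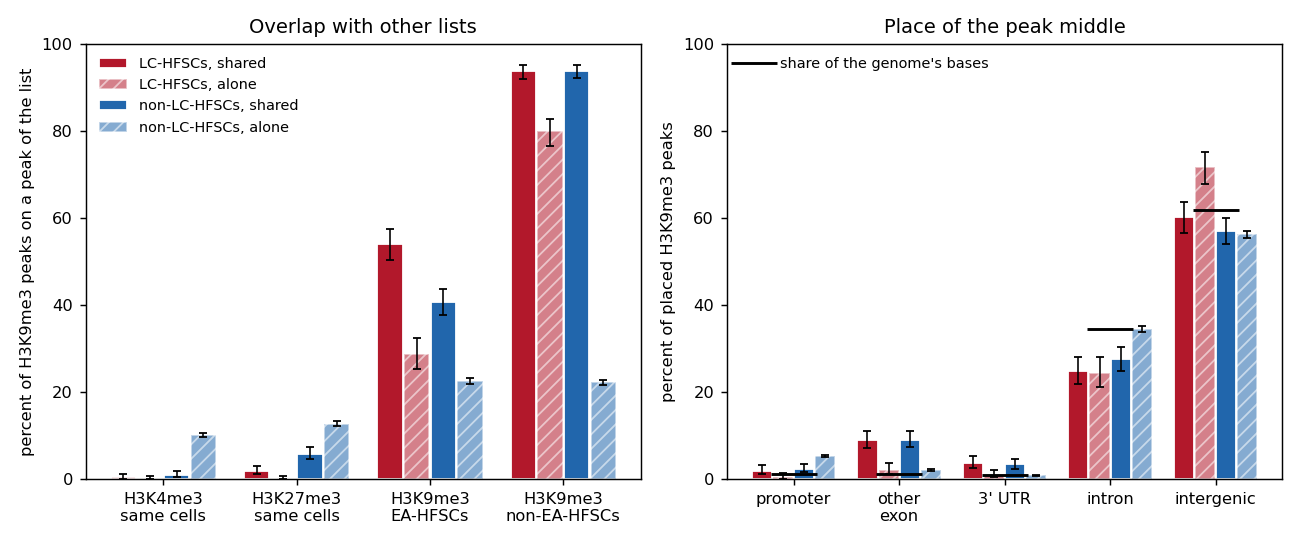
Left, percent of H3K9me3 peaks (y axis) on a peak of 4 other lists (x axis); right, percent of placed peaks whose middle lies in each kind of region, with black lines for the share of the genome's bases, for shared peaks (full bars) and peaks of 1 population alone (hatched bars). Error bars are 95% Wilson intervals. Peaks of non-LC-HFSCs alone stand highest on H3K4me3 (10.2%) and lowest on non-EA-HFSC H3K9me3 (22.3%), and peaks of LC-HFSCs alone are the most often intergenic (71.6%).

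By the middle of the peak, 877 of the 1343 LC-HFSC peaks on placed chromosomes were intergenic (65.3%, 62.7 to 67.8%), and 10219 of 18142 in non-LC-HFSCs (56.3%, 55.6 to 57.1%), where 61.8% of the genome's bases are intergenic. Peaks of LC-HFSCs alone were intergenic in 71.6% (67.9 to 75.1%) and shared LC-HFSC peaks in 60.2% (56.7 to 63.7%). Promoters (from 1000 bp before a transcript start to 100 bp after it) held 18 LC-HFSC peaks (1.34%, 0.850 to 2.11%) and 945 non-LC-HFSC peaks (5.21%, 4.90 to 5.54%), where they make up 1.29% of bases. Exons outside the untranslated regions held 8.97% (7.13 to 11.2%) of the shared LC-HFSC peaks and 9.15% (7.53 to 11.1%) of the shared non-LC-HFSC peaks. They held 2.18% and 2.13% of the peaks in LC-HFSCs alone and non-LC-HFSCs alone, and 1.21% of bases. Shared peaks thus stood out in exons and peaks of non-LC-HFSCs alone in promoters. The median distance to a gene start was 21249 bp for shared LC-HFSC peaks and 40277 bp for those in LC-HFSCs alone.

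Such exons held 80 LC-HFSC and 457 non-LC-HFSC peaks. Counted once for each zinc finger (Zfp) gene they lay on, 54 and 109 were on such genes. These encode a family of transcription factors whose C2H2 fingers are encoded in tandem by a long last exon. A linker match in the central 1 kb was found in 98 of 747 shared LC-HFSC peaks (13.1%, 10.9 to 15.7%) and in 130 of 1016 shared non-LC-HFSC peaks (12.8%, 10.9 to 15.0%). It was found in 3.19% (2.05 to 4.93%) of the peaks in LC-HFSCs alone, in 0.537% (0.438 to 0.658%) of those in non-LC-HFSCs alone, and in 0.206% of all 1-kb windows of the genome. Within 20 kb of a gene with a Zfp symbol, which is 0.820% of the genome, lay 24.0% (21.0 to 27.2%) of the shared LC-HFSC peaks and 8.72% (6.72 to 11.3%) of those in LC-HFSCs alone. For non-LC-HFSCs the values were 27.6% (24.9 to 30.4%) and 2.84% (2.60 to 3.10%). The highest-scoring 1414 non-LC-HFSC peaks stood between, with 11.8% (10.2 to 13.6%) near Zfp genes and 5.97% (4.84 to 7.34%) with a linker.

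Over all 22367 protein-coding genes, 326 (1.46%) had an LC-HFSC peak on the gene and 4972 (22.2%) a non-LC-HFSC peak. Of the 326 genes, 287 had peaks of both (88.0%, 84.1 to 91.1%). Among the 371 genes with a Zfp symbol, 89 had an LC-HFSC peak (24.0%, 19.9 to 28.6%) and 175 a non-LC-HFSC peak (47.2%, 42.2 to 52.3%), and 83 had both. Zfp genes made up 27.3% of all genes with an LC-HFSC peak and 3.52% of those with a non-LC-HFSC peak, against 1.66% of all genes. On these genes the mark lay towards the end. A peak on overlapping Zfp genes was counted once for each of them here. The median place of the 139 LC-HFSC peaks with their middle on a Zfp gene was 78.7% of the way from start to end, and when genes were cut into 5 equal parts, 65 (46.8%, 38.7 to 55.03%) lay in the last part and 6 in the first. Of the 442 non-LC-HFSC peaks, 134 (30.3%, 26.2 to 34.8%) lay in the last part and 65 in the first. Of the LC-HFSC peaks on Zfp genes 116 (83.5%) were shared, and 184 (41.6%) of the non-LC-HFSC peaks. The zinc finger genes were chosen for this comparison with earlier results of these data known.

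By highest score, Zfp369 came first in LC-HFSCs, with 5 peaks up to a score of 306 and 12 non-LC-HFSC peaks up to 241. Zfp810 had 2 LC-HFSC peaks (highest score 298) and 3 non-LC-HFSC peaks (201). A single peak of either population covered Zfp873, with scores of 241 and 160. In non-LC-HFSCs the order was different. Zfp110 led with a score of 833 over 6 peaks and had 3 LC-HFSC peaks up to 93.5, and Zfp329 followed with 572 and 1 LC-HFSC peak of 192. Zfp180 had 6 non-LC-HFSC peaks up to 399 and no LC-HFSC peak. Zfp35 had 1 LC-HFSC peak (218) and 3 non-LC-HFSC peaks (up to 203), and Zfp952 had 1 (216) and 2 (up to 354). Of these 8 genes, Zfp369, Zfp35, Zfp110, Zfp329, Zfp180 and Zfp952 had H3K4me3 at the start in both populations, and Zfp810 and Zfp873 in neither. Over all 371 Zfp genes 295 had H3K4me3 at the start in LC-HFSCs and 300 in non-LC-HFSCs. The shares of all genes were 53.9% and 56.6%. Zfp genes with an LC-HFSC peak and no non-LC-HFSC peak numbered 6, against 39 of all 22367 genes. Zfp286 was the highest of the 6 at a score of 161 and was named after its value was seen.

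**Figure D4:**
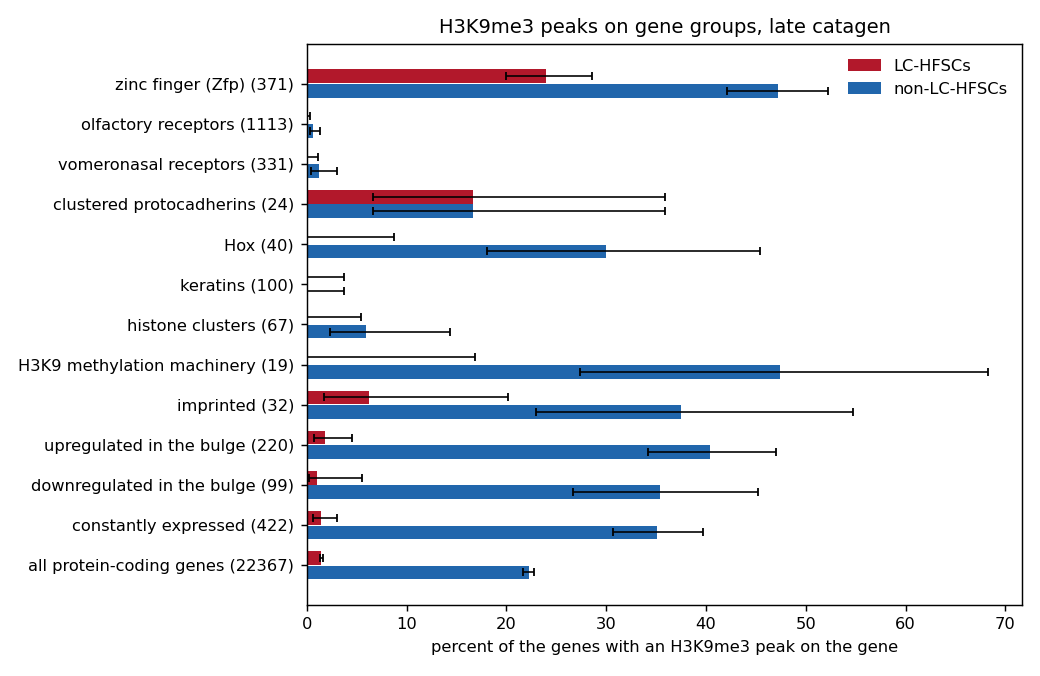
Percent of the genes in each group (y axis, number of genes in brackets) with at least 1 H3K9me3 peak on the gene (x axis) in LC-HFSCs and non-LC-HFSCs; error bars are 95% Wilson intervals. Zinc finger genes stand at 24.0% and 47.2%, all protein-coding genes at 1.46% and 22.2%, and keratins at 0 in both.

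Other gene groups with peaks in LC-HFSCs were few. None of the 40 Hox genes, which pattern the body axis, had an LC-HFSC peak, which allows a share of up to 8.76%, and 12 (30.0%, 18.1 to 45.4%) had a non-LC-HFSC peak. Over all genes the shares were 1.46% and 22.2%, and both lie within what these counts on the gene allow. Within 3000 bp of the start the non-LC-HFSC share was higher than that of all genes. There 14 of the 40 Hox genes had such a peak (35.0%, 22.1 to 50.5%), against 11.6% of all genes. By score on the gene Hoxd10 led with 2 peaks up to 165, and H3K27me3 lay at its start in non-LC-HFSCs and not in LC-HFSCs. Keratin and keratin-associated genes, which build the hair and the epidermis, had no peak in either population on any of 100 genes (up to 3.70%). Olfactory receptors, a large family expressed in the nose, had an LC-HFSC peak on none and a non-LC-HFSC peak on 7 of 1113 genes, led by Olfr571 at a score of 64.7. Vomeronasal receptors had 0 and 4 of 331, with Vmn2r61 highest at 68.4. The histone genes had 0 and 4 of 67, none with a score above 59.2 (Hist3h2ba). These shares in non-LC-HFSCs lay below the 22.2% of all genes for both receptor families, the keratins and the histone genes. They were not adjusted for gene length. Within 3000 bp of the start the histone genes had 5 of 67 (7.46%, 3.23 to 16.3%), which takes in the 11.6% of all genes. Olfactory receptors (up to 1.99%), vomeronasal receptors (up to 3.07%) and keratins (up to 3.70%) lay below that share too. Of 19 genes of the H3K9 methylation machinery, none had an LC-HFSC peak, which allows up to 16.8% and takes in the 1.46% of all genes. A non-LC-HFSC peak lay on 9 of them (47.4%, 27.3 to 68.3%), against 22.2% of all genes. The highest was on Atf7ip, the partner of Setdb1 (5 peaks up to 101), ahead of the H3K9 demethylase gene Kdm4a (73.1) and the H3K9 methyltransferase gene Ehmt1 (66.9).

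Among 32 imprinted genes 12 had a non-LC-HFSC peak (37.5%, 22.9 to 54.8%) and 2 of these also an LC-HFSC peak (6.25%, 1.73 to 20.2%), against 22.2% and 1.46% of all genes. Kcnq1 had 1 LC-HFSC peak (score 64.1) and 7 non-LC-HFSC peaks (up to 96.1), and Grb10 had 1 (40.6) and 2 (up to 43.7). The study's 3 gene sets were read the same way, by symbol only. Of 220 genes upregulated in the bulge, 4 had an LC-HFSC peak (1.82%, 0.709 to 4.58%) and 89 a non-LC-HFSC peak (40.5%, 34.2 to 47.0%). Zfhx3 was the highest in LC-HFSCs with a score of 139. Of 99 downregulated genes, 1 (Ghr, the growth hormone receptor, at a score of 40.3) and 35 (35.4%, 26.6 to 45.2%) had a peak. Of 422 constantly expressed genes, 6 (1.42%, 0.653 to 3.07%) and 148 (35.1%, 30.7 to 39.7%) did. LC-HFSC shares of these sets lay at the level of all genes, and none of the intervals of the non-LC-HFSC sets separated upregulated from downregulated genes. These counts were not adjusted for gene length.

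Peaks at gene starts were few in LC-HFSCs. Within 3000 bp of the start, 66 genes (0.295%) had an LC-HFSC peak and 2605 (11.6%) a non-LC-HFSC peak, and 46 had both. Of the 2605 genes 2082 also had H3K4me3 at the start (79.9%, 78.3 to 81.4%), against 56.6% of all genes, and of the 66 genes 7 did (10.6%, 5.23 to 20.3%), against 53.9%. H3K27me3 was at the start of 487 of the 2605 (18.7%, 17.2 to 20.2%), against 11.9% of all genes, and of 4 of the 66 (6.06%, 2.38 to 14.6%), against 3.39%. Zfp genes made up 16 of the 66. They included Zfp936 (highest score on the gene 181), Zfp958 (176) and Zfp850 (139), and 15 of the 16 also had a non-LC-HFSC peak there. These 3 genes were chosen after their values were seen. No bulge-upregulated, bulge-downregulated or constantly expressed gene had an LC-HFSC peak at the start. In non-LC-HFSCs 29 (13.2%, 9.34 to 18.3%), 11 (11.1%, 6.32 to 18.8%) and 83 (19.7%, 16.2 to 23.7%) did. Of the bulge markers, 1 (Sox9) had a non-LC-HFSC peak at the start.

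LC-HFSC peaks were found on all 19 autosomes, at unequal density. Chromosomes 13, 17 and 10 held 29.7% of them and 16.98% of the non-LC-HFSC peaks, and make up 13.0% of the placed genome. The density was highest on chromosome 17, at 1.62 LC-HFSC and 9.93 non-LC-HFSC peaks per Mb, and 0.541 and 7.30 over the autosomes. Peaks of a list were joined into chains where less than 50 kb separated neighbours. In LC-HFSCs 17 chains of 10 or more peaks held 277 peaks (19.6%), and in non-LC-HFSCs 115 such chains held 1961 (10.8%). By contrast, 45.7% of the LC-HFSC and 31.7% of the non-LC-HFSC peaks stood alone.

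The LC-HFSC chain with most peaks lay on chromosome 17 from 17330028 to 17499347, with 28 LC-HFSC peaks, 20 of them shared, and 43 non-LC-HFSC peaks over Gm6712. A chain on chromosome 10 from 81465715 to 81692570 held 25 LC-HFSC and 43 non-LC-HFSC peaks over Zfp873, AU041133 and Zfp938. In it LC-HFSC peaks covered 66.5 kb with a median width of 2097 bp, and non-LC-HFSC peaks 33.5 kb with 689 bp. Of the 25 LC-HFSC peaks, 17 were shared. All 25 LC-HFSC peaks also lay on a non-EA-HFSC peak and 15 on an EA-HFSC peak. On chromosome 13 from 67571299 to 67845801, 16 LC-HFSC and 47 non-LC-HFSC peaks lay over Zfp58, Zfp87, Zfp748 and other genes. On chromosome 12, 18 LC-HFSC and 29 non-LC-HFSC peaks between 20211403 and 20324232 lay over no protein-coding gene.

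**Figure D5:**
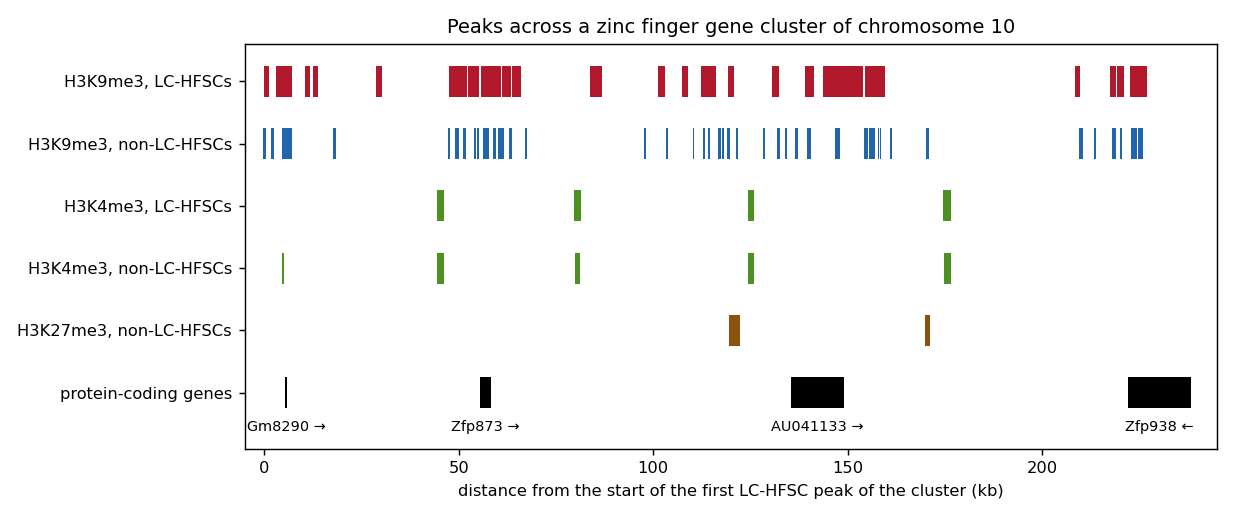
Peaks of 5 lists (rows) and protein-coding genes with their direction (lowest row) along the chromosome 10 cluster, by distance in kb from the first LC-HFSC H3K9me3 peak (x axis). The 25 LC-HFSC H3K9me3 peaks form broad blocks where the 43 non-LC-HFSC peaks are narrow, and the 4 H3K4me3 peaks of LC-HFSCs lie between these blocks; no H3K27me3 peak of LC-HFSCs lies in this stretch.

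The clustered protocadherins, neuronal adhesion genes read from alternative first exons, carried the chain with the next most peaks, on chromosome 18 from 37796903 to 37934025. It held 26 LC-HFSC peaks (66.6 kb, 18 shared) and 53 non-LC-HFSC peaks (43.1 kb). Pcdhgc5, whose annotated span takes in much of the gamma cluster, had 25 LC-HFSC peaks up to a score of 240 and 44 non-LC-HFSC peaks up to 168. Over the 24 annotated clustered protocadherin genes, 4 had a peak in LC-HFSCs and 4 in non-LC-HFSCs, with 3 in common. Either share was 16.7% (6.68 to 35.9%), against 1.46% of all genes in LC-HFSCs and 22.2% in non-LC-HFSCs. The non-LC-HFSC share was thus not set apart from that of all genes. Pcdhb19 had 3 LC-HFSC peaks (up to 56.5) and no non-LC-HFSC peak. Among the groups examined, this was the only one in which as many genes had a peak in LC-HFSCs as in non-LC-HFSCs, apart from the keratins with none in either.

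The 5 highest-scoring shared LC-HFSC peaks on placed chromosomes were broad, from 5920 to 9807 bp. The first lay on chromosome 12 from 20232458 to 20240371 with a score of 445, on 1 non-LC-HFSC peak of 230, in the gene-free chain described above, and also on an H3K4me3 peak of LC-HFSCs. The second, also at 445 and the widest, was at chr13:13016642-13026448, and the closest gene start, that of Prl2c2, was 76114 bp away. The third, at 399.97, lay over Gm3604, whose repeats are printed above, and touched 4 non-LC-HFSC peaks up to 136. The fourth (325) lay over 2410141K09Rik and the fifth (306) in an intron of Zfp369. Of these 5, 4 also had an EA-HFSC peak and all a non-EA-HFSC peak.

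The 5 highest-scoring LC-HFSC peaks without a counterpart on placed chromosomes were narrower, from 2199 to 4325 bp. Unplaced sequence held the highest score of this class, 236. The first, with a score of 211, spanned 3446 bp of intergenic sequence on chromosome 13 from 65632019, and the second, with 161, lay over the 3′ untranslated region of Zfp286 and 4 linker matches. The next 3 were intergenic, with scores of 140, 138 and 138. Their closest gene starts were those of Vmn2r12 (12664 bp away), Tdpoz3 (30456 bp) and Gm9805 (33104 bp). The widest of this class, 6455 bp on chromosome 2 from 177297806, had a score of 105. Of these 6 peaks, 5 had an H3K9me3 peak in non-EA-HFSCs.

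The highest-scoring peaks of non-LC-HFSCs alone were of another kind. Their widths were 699 to 6784 bp, where 683 bp is the upper quartile of the class. Their scores were 3100 and 2419 on chromosome 2 (over Gm10800 and Gm10801), 2442 on chromosome 17 from 39979498 to 39986281 and 1704 on chromosome 9 from 35112665. The fifth, with 932, lay on chromosome 12 from 3109558. All 5 had an EA-HFSC H3K9me3 peak and none a non-EA-HFSC peak. Their CpG ratios, from 0.322 to 1.04, lay above the median of 0.183 for the class. Regions of artificially high signal were not filtered out here, and the part of read mapping in these 5 scores was not tested. The widest peak of the class spanned 19497 bp on chromosome 9 from 3013757, over Gm10721 and neighbouring genes, with a score of 43.5. Its sampled 31-base words had a median of 42 copies in the genome, the highest among the named peaks. High copy number was rare in both lists. The study describes its reads as uniquely mapped, which leaves few reads on repeated sequence. This rarity can therefore not be read as absence of the mark from repeats. Copies were counted on the placed chromosomes only. A median of at least 10 copies was found in 2.46% (1.75 to 3.43%) of the LC-HFSC and 2.13% (1.93 to 2.35%) of the non-LC-HFSC peaks, against 8.46% of regularly spaced genome windows. A median of 1 copy was found in 77.3% of the LC-HFSC and 91.6% of the non-LC-HFSC peaks, against 86.6% of the genome windows. Which repeats lie under the peaks was not tested.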

How the data were processed

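ChIP-seq of H3K9me3 in LC-HFSCs and non-LC-HFSCs was analysed from 1 peak list each. The authors trimmed single-end reads (Trimmomatic 0.22 in the submitters' notes), aligned them to mm9 with Bowtie2, pooled experiments and ran MACS against IgG of the same cells. The deposited score of each peak is 10 times the negative log10 of the MACS p-value, with a threshold of 0.0001 for H3K9me3 and H3K27me3 and 1e-05 for H3K4me3. Read depth was not part of the lists.

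Python 3.11.15 (pandas 2.3.3, numpy 2.4.6) was used for overlaps, widths and positions. Overlaps were tested on simulated data, and bedtools 2.31.1 counted as many shared peaks. Genes were the 22367 protein-coding genes of GENCODE vM1 (NCBIM37, the assembly of mm9). The 71 LC-HFSC and 94 non-LC-HFSC peaks on unplaced sequence entered counts and overlaps only. Copy numbers came from 10 words of 31 bases per 1-kb window.

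No test between populations was run, since each had 1 list. Members and gene lists were chosen with earlier results of these data known. Named peaks were the 5 highest scores on placed chromosomes and the widest of each class, and named genes the 4 highest scores per group and population. Alternatives were 2 score minima, equal list length, merging, a 50% overlap, other gene windows and the autosomes. The labels give no replicate numbers. Repeat classes were not analysed here. The sequence under 1 peak is not reported here.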

Additional observations from a re-analysis of the deposited data

How the results depend on the processing

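Of 46 alternatives to 12 results, 15 stayed within the 95% interval of the value as reported (for numbers of genes, within 1.5 times), 30 did not, and 1 reversed. The covered length ratio has no interval, and any change in it was counted. With the same number of top peaks the covered length ratio turned from 0.235 to 1.74. Peaks with a score of at least 50 gave a peak number ratio of 0.0928, a length ratio of 0.303, 49.6% of LC-HFSC peaks shared, 15.1% of non-LC-HFSC peaks on H3K27me3 and 1359 genes with a non-LC-HFSC peak at the start. A score of at least 100 gave 0.240 and 0.689 for the ratios, 38.3% and 11.3% shared, 57.5% and 53.0% intergenic, 1.53% and 6.13% on H3K4me3, 25.9% of non-LC-HFSC peaks on H3K27me3, and 18 and 120 genes. The same number of top peaks gave 20.7% and 22.4% shared and, in non-LC-HFSCs, 54.1% intergenic, 7.99% on H3K4me3, 22.9% on H3K27me3 and 216 genes. Merging gave a peak number ratio of 0.0726 and 4.40% of non-LC-HFSC peaks shared. A 50% overlap gave 24.5% and 5.15% shared, 0.141% of LC-HFSC peaks on H3K4me3 and 11.7% of non-LC-HFSC peaks on H3K27me3. The autosomes alone gave a length ratio of 0.226, and the 1000-bp window 33 genes in LC-HFSCs. The cause of these shifts was not tested. LC-HFSC peaks were fewer under each alternative that compared numbers, and less often on H3K4me3 and H3K27me3 under each tried. The H3K27me3 lists themselves were not cut and covered 7.41 Mb in LC-HFSCs and 35.9 Mb in non-LC-HFSCs throughout. Of the values for the top peaks of non-LC-HFSCs in the report, the width, linker, Zfp and early anagen shares were added after seeing the data. No paired analysis was possible because there is 1 list per population. The study describes its reads and replicates, but the pooled lists hold neither, and they cannot show whether a site missing from the shorter list lacks the mark or fell below the threshold.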

Other observations

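Of the LC-HFSC peaks, 103 (7.28%) lay on no H3K9me3 peak of the other 3 populations. The highest-scoring 2 of these, with scores of 120 and 87.7, lay on chromosome 13 from 12948806 to 12954488 and from 12977949 to 12983098. Both were intergenic. The closest gene start, that of Prl2c3 of the prolactin family, was 59302 and 88179 bp away. The widest LC-HFSC peak, described above, lies on the same chromosome from 13016642 and had 1 non-LC-HFSC peak on it. Ttn, the gene of the sarcomere protein titin, had 6 LC-HFSC peaks up to a score of 110 and 5 non-LC-HFSC peaks up to 44.0.

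On unplaced sequence lay 71 LC-HFSC peaks (5.02% of the list), 25 of them shared, and 94 non-LC-HFSC peaks (0.516%), 34 of them shared. Chromosome X had 6 LC-HFSC and 87 non-LC-HFSC peaks, 0.036 and 0.522 per Mb, and none of the 6 was shared. The genes named here were chosen after their values were seen.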
